A study of Mus musculus with 104 samples.

Results

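Of the 104 microarrays of the series, 11 were labelled BALB cerebellum and came from young mice of 2-3 months (5 arrays) or middle-aged mice of 12-13 months (6 arrays). They were chosen by their labels alone, and are all the arrays of that strain, region and pair of ages. The mice were males of an aged rodent colony, taken after home cage monitoring, with no allele or treatment named in the labels, and the total RNA of each was amplified, labelled with Cy3 and hybridized in 1 colour to an Agilent whole mouse genome array with 4 arrays per slide. The wider study asked how the transcriptome of hypothalamus and cerebellum changes with age in BALB and C57BL/6 mice, with an emphasis on immune genes. The 4 aged mice of the same cohort (21-23 months) stayed in the model fit to share its estimate of the spread and are otherwise shown only where the label is checked. Values are log2 of the background-corrected spot intensity after quantile normalization over these 15 arrays, so a difference of 1 is a doubling of signal, and they are compared only within a probe.

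The cerebellum is built mainly of granule cells, the most numerous neurons of the brain, and of Purkinje cells, the sole output neurons of its cortex, and both express genes that are nearly silent in most of the forebrain. Microglia, the resident macrophages of the brain, carry receptors for cell debris and antibodies and are a main source of complement component C1q, and a subset of them in aging or damaged tissue expresses Clec7a, Itgax and Cst7. The choroid plexus is the epithelium in the ventricles that secretes cerebrospinal fluid and makes transthyretin, and how much of it stays on a piece of brain depends on the dissection.

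The results turn on a small number of probes, of which the following are shown because they separate the 11 arrays from the aged arrays of the same label (Pcp2, Gabra6, Synpo2, Slc6a3), vary most among the 11 (Slc6a4) or are genes of the age comparison (Clec7a, Lyz2, Cst7, Steap1). Each is a designed 60-mer, and its first 30 bases are printed 5′ to 3′ with the position of the whole probe in mm7, the build of the array annotation. No base is marked.
Pcp2 (chr8:3585976-3586035, minus strand): gatggaatgcagaaacgacctgggaccctc
Gabra6 (chr11:42263338-42263397, minus strand): tgcatatgtacatagctttagttatgctgc
Synpo2 (chr3:122949681-122949740, minus strand): cgatgtctagagactttgtgtaaagacttt
Slc6a3 (chr13:70510016-70510075, plus strand): tggctgagaagaatcaggtttaccatctcc
Slc6a4 (chr11:77113633-77113692, plus strand): acataaaccacctaagagaaaacagggatg
Clec7a (chr6:129485033-129485092, minus strand): ttaataccacccttatttccagtgtggact
Lyz2 (chr10:116785279-116785338, minus strand): cttaagttccttcattcacactaactctga
Cst7 (chr2:150319611-150319670, plus strand): agagagtcctttgatgacattactggagca
Steap1 (chr5:5742375-5742434, minus strand): ctccaggttgtagaactactgtttgcacat

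The 11 arrays did not carry the gene signature of their label. Set against the mean of the 12 C57BL/6 cerebellum arrays, all normalized together, the mean of 19 cerebellar genes lay between -4.02 and -2.06 on the 11 arrays, and none of them reached the lowest C57BL/6 cerebellum array, at -1.24. The 4 aged arrays of the same label lay between 0.23 and 0.88, so the aged arrays and the 11 others differ in tissue content as well as in age, and these cannot be told apart. Of the 13 arrays labelled BALB striatum, 12 lay at or above the lowest C57BL/6 cerebellum array. The normalized signal of Pcp2, a Purkinje cell gene, was 10.25, 10.11, 10.84, 10.34 and 10.28 on young arrays 1 to 5 and 10.15, 12.92, 10.13, 10.12, 13.35 and 10.24 on middle-aged arrays 1 to 6. Middle-aged 2 and 5 stood above the other 9, and all 11 stood below the aged arrays, at 16.84 to 17.40. Middle-aged 2 and 5 shared a slide that held no other of the 11, so slide and cerebellar content cannot be told apart for them. Gabra6, a GABA-A receptor subunit of cerebellar granule cells, was 11.24 on middle-aged 5, 9.86 on middle-aged 2 and 7.75 on young 3, and from 1.80 to 5.73 on the other 8, against 13.99 to 15.82 on the aged arrays. Cbln3, which partners cerebellin 1 in granule cells, cleared the background level on middle-aged 2 and 5 alone among the 11 arrays. Crtam showed the same order, at 10.08 and 11.23 on middle-aged 2 and 5 and 5.89 to 7.83 on the rest. Genes shared with other regions stood closer together, with Calb1 (calbindin) between 13.85 and 14.51 and Cbln1 (cerebellin 1) between 12.86 and 14.18 on the 11.

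Genes of the forebrain, thalamus and hypothalamus stood higher on the 11 arrays than on C57BL/6 cerebellum. The forebrain identity list (11 transcription factor genes) lay 3.54 to 5.28 above C57BL/6 cerebellum, the thalamus list (15 genes) 1.08 to 2.32 above and the hypothalamus list (19 genes) 0.91 to 1.94 above. The corresponding ranges were -0.10 to 2.57, -0.24 to 0.20 and -0.99 to 0.23 on the 4 aged arrays. The striatum, cerebral cortex and hippocampus lists also lay above C57BL/6 cerebellum on all 11, by 0.36 to 2.27, 0.45 to 2.53 and 0.34 to 1.57. For the hypothalamus list, the BALB hypothalamus arrays lay far higher than the 11, at 4.37 to 4.97. Synpo2, a thalamus gene in this list, ranged from 13.12 to 14.26 on the 11 and from 8.29 to 9.29 on the aged arrays. Tcf7l2, a transcription factor of thalamic neurons, ranged from 13.21 to 14.67 and from 11.42 to 11.72. Slc6a3, the dopamine transporter of midbrain dopamine neurons, was between 12.30 and 14.49 on the 11 arrays and between 5.32 and 9.98 on the aged ones. The list of midbrain and hindbrain genes as a whole lay below C57BL/6 cerebellum, at -2.98 to -0.26 on the 11. The strain and sex genes were as the labels have them. The Y-linked Ddx3y was between 11.07 and 12.06 on all 11, Xist was not well above background on any, and H2-Ea, a class II gene that C57BL/6 mice lack, was between 5.05 and 7.82 and well above background on all 11. The comparison with C57BL/6 cerebellum mixes strain with region, and the labels name no other region for these arrays, so the tissue is left unnamed here and the arrays are called by their label.

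**Figure D1:**
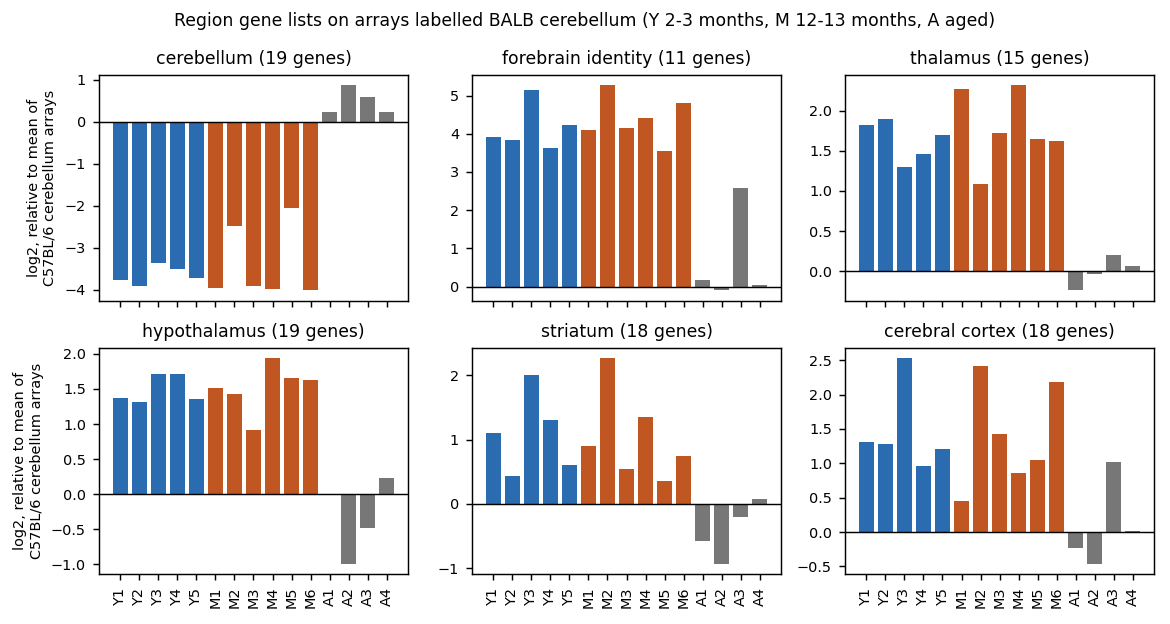
Mean level of 6 lists of regional marker genes on each array labelled BALB cerebellum (Y, 5 young; M, 6 middle-aged; A, 4 aged), in log2 relative to the mean of the 12 C57BL/6 cerebellum arrays, with 1 bar per array. Cerebellar genes lie between -4.02 and -2.06 on the 11 young and middle-aged arrays, and forebrain, thalamus, hypothalamus, striatum and cerebral cortex genes lie above 0 on all 11.

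The 11 arrays also differed among themselves, in ways that did not follow age. The serotonin transporter gene Slc6a4 had the largest spread of all genes tested (SD 3.03 over the 11 arrays). It was 11.49, 4.76, 6.54, 11.69 and 11.53 on young arrays 1 to 5 and 5.08, 11.20, 11.76, 5.20, 11.27 and 9.64 on middle-aged arrays 1 to 6. Tph2, the enzyme that makes serotonin in the brain, followed the same arrays, at 11.39, 5.90, 6.63, 11.71 and 11.38 and at 5.79, 11.04, 11.50, 5.62, 11.34 and 9.14. Both genes were thus high on young 1, 4 and 5 and on middle-aged 2, 3, 5 and, less so, 6, and low on young 2 and 3 and on middle-aged 1 and 4. The serotonin neurons of the brain lie in the raphe nuclei of the brainstem, and the 2 age groups overlapped fully (difference -0.17 ± 1.74 for Slc6a4 and -0.33 ± 1.52 for Tph2, standard error of the limma fit). Hoxb5, a homeobox gene of the hindbrain and spinal cord, was high on a subset of these, at 8.07 on young 1, 9.44 on young 4, 8.37 on middle-aged 2 and 9.35 on middle-aged 5, and between 2.01 and 4.36 on the others.

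The neuropeptide genes Pmch and Hcrt were lowest on young 3 and middle-aged 3. Pmch (melanin-concentrating hormone) was 11.90 and 11.78 there and 13.24 to 14.71 elsewhere. Hcrt, the orexin precursor, was at most 10.09 there and 12.50 to 14.44 elsewhere. Both genes are made by neurons of the lateral hypothalamus. Oxt (oxytocin) and Avp (vasopressin), hormones of other hypothalamic neurons, were instead highest on young 3. Oxt ran from 8.09 on middle-aged 1 to 12.71 there, and Avp from 9.96 on middle-aged 3 to 13.39 there. Lhx8, a transcription factor of basal forebrain cholinergic neurons, was 2.93 on young 2, 2.45 on middle-aged 3 and between 5.69 and 9.34 on the other 9.

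Striatal genes were highest on young 3 and middle-aged 2, and cortical genes on these and on middle-aged 6. The striatum list (18 genes), centred on its mean over the 11 arrays, was 0.92 on young 3 and 1.19 on middle-aged 2 and between -0.68 and 0.29 on the others. Drd1, the dopamine D1 receptor gene, was 10.22 on young 3 and 10.32 on middle-aged 2 and 7.69 to 9.42 on the others. The cerebral cortex list (18 genes) was 0.96, 0.98 and 0.75 on young 3, middle-aged 2 and middle-aged 6, and between -0.94 and 0.02 on the rest. Tbr1, a transcription factor of deep-layer neurons, was 11.22, 10.59 and 11.06 on those 3 arrays and 7.11 to 9.21 elsewhere.

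Genes induced within minutes of neuronal firing were highest on middle-aged 6. Arc, an activity-dependent synaptic gene, was 15.38 there and 12.48 to 14.06 on the other 10 arrays. Egr2 was 11.61 there, 10.51 on young 3 and 10.35 on middle-aged 2, and 7.01 to 9.24 on the rest, and Npas4 was 9.52 there and 6.74 to 7.95 elsewhere. The list of 14 immediate early genes, centred in the same way, was 1.24 on middle-aged 6 and -0.74 to 0.49 on the others.

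A further array-specific signal came from young 5 alone, where the unannotated transcript 1110002N22Rik was 18.57 against 8.10 to 9.44 on the other 10 arrays. Prl, a pituitary hormone gene, was 9.09 on young 1 and 7.17 on middle-aged 5 and at most 5.63 elsewhere. Mela, whose probe was 11.50 on middle-aged 2, 9.1 on young 3 and 3.12 to 7.14 on the others, was 11.24 to 14.61 on the aged arrays. Trim50, one of several dim probes with a like pattern among the 15 genes of largest spread, was 8.06 on young 3, 7.36 on young 4, 8.43 on middle-aged 2, 5.79 and 5.77 on middle-aged 5 and 6, 4.6 on young 2 and 2.17 to 2.91 on the other 5. Of these arrays, young 4 and middle-aged 2 had the dimmest 75th percentile intensity of the 11 (1302 and 1150), and young 3 and middle-aged 2 the largest shares of probes well above background (83.6% and 86.9%).

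**Figure D2:**
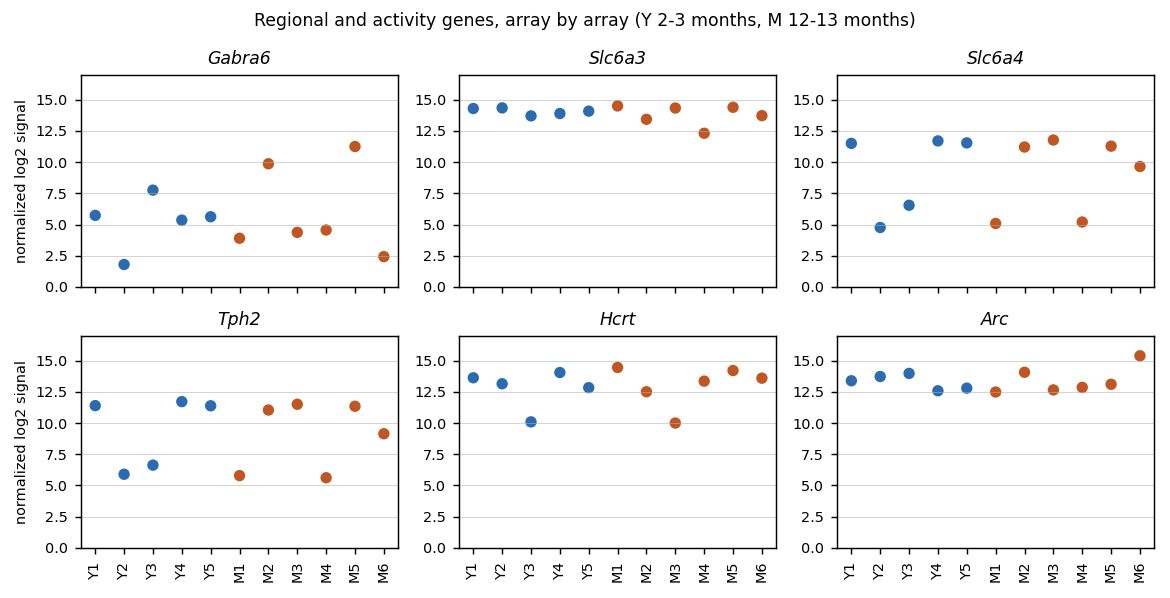
Normalized log2 signal of 6 genes on each of the 11 arrays (Y, 2-3 months; M, 12-13 months), with 1 point per array. Slc6a4 and Tph2 are high on the same 7 arrays of both ages, Gabra6 is highest on M5 and M2, and Arc is highest on M6, at 15.38.

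No single gene passed the criterion of the study between middle-aged and young arrays. Of 22516 genes tested (32836 probes), 0 had a probe with B above 0, the log-odds threshold of the study (0% of those tested), and 0 had a Benjamini-Hochberg adjusted limma p under 0.05 (0%). The highest B was -4 and the smallest adjusted p was 1. At an unadjusted limma p under 0.05, 141 genes remained by their brightest probe (0.626%), 33 higher (0.147%) and 108 lower (0.48%) on the middle-aged arrays. Evenly distributed p-values would put a share of 0.05 of the genes there, so the threshold is not a calibrated error rate here. With only the 11 arrays in the fit, 366 genes passed it (1.63%). Correlations between pairs of the 11 arrays ran from 0.9169 to 0.9945, and middle-aged 2 had a median correlation of 0.9254 with its own group. All counts of genes below are at the unadjusted threshold and are descriptions, to be read beside these percentages.

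The 35 immune genes that the study names were, all 35, lower on average on the middle-aged than on the young arrays, and 14 of them passed the unadjusted threshold, all lower, where 0.48% of all genes did. Their median difference was -0.52, against -0.01 over all genes tested, of which 51.7% had a lower mean. The study chose this list partly on arrays of this series, so the list is not independent evidence of its direction. In whole tissue, fewer cells of a type and less RNA per cell cannot be told apart. The 14 were the surface receptors Clec7a, Itgax, Pirb, Tlr2 and Igsf6, the effector and lysosomal genes Lgals3, Lyz2, Ctss and Mpeg1, the annexin Anxa4, the chemokine Ccl6, the complement gene C4b, and the class I genes H2-K1 and H2-Q1, which share sequence with other class I genes, so that their probes may read more than 1 of them. Below, differences are given on the log2 scale as middle-aged minus young with the standard error of the fit.

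Among the pattern receptors, Clec7a (dectin-1, a receptor for fungal glucans) was 8.15, 8.62, 7.76, 9.40 and 9.62 on the young arrays and 6.63, 8.84, 6.65, 6.70, 7.98 and 7.09 on the middle-aged arrays. Middle-aged 2 and 5 lay within the young range and the other 4 below every young array. The difference was -1.40 ± 0.54 (unadjusted p = 0.0213, limma), and -1.96 without middle-aged 2 and 5. Itgax, the integrin CD11c, was 7.11, 7.84, 7.26, 8.62 and 8.76 on the young and 6.10, 8.56, 5.97, 6.02, 6.77 and 6.77 on the middle-aged arrays, so that 5 of 6 middle-aged arrays lay below every young one. Its difference was -1.22 ± 0.50 (unadjusted p = 0.0285, limma), while its dimmer probe gave -0.25 ± 0.22. Pirb, which the study calls Lilrb3, an inhibitory receptor for class I molecules, differed by -1.05 ± 0.41.

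Among lysosomal and secreted proteins, Lyz2, lysozyme of macrophages, was 13.68, 14.07, 13.28, 14.77 and 14.65 on the young and 12.58, 14.03, 12.91, 12.58, 13.89 and 13.02 on the middle-aged arrays, with middle-aged 2 and 5 inside the young range and the other 4 below it. It had the smallest p of the list (difference -0.92 ± 0.33, unadjusted p = 0.0133, limma), and its second probe gave -0.92 ± 0.33 as well. Ctss, cathepsin S, a protease of antigen processing, was 15.02 to 15.51 on the young and 14.51 to 15.04 on the middle-aged arrays, with only middle-aged 2 reaching the young range. Lgals3, galectin-3, differed by -0.88 ± 0.39. Ms4a6d was the 1 gene of the 35 whose groups did not overlap, at 7.50 to 8.14 on the young and 7.00 to 7.40 on the middle-aged arrays, against 30 of all genes tested (0.133%) with every middle-aged array below every young one. It did not pass the threshold (-0.55 ± 0.46). The aged arrays, which share the estimate of the spread, ran from 5.99 to 9.83.

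In the complement cascade C4b, which is cleaved after C1 is activated, was 11.42, 11.80, 11.42, 13.13 and 12.12 on the young and 10.90, 12.23, 10.90, 10.65, 11.29 and 10.93 on the middle-aged arrays, 5 of which lay below all young arrays (-0.83 ± 0.34). C3, at which the activation pathways meet, differed by -0.85 ± 0.42 and the C1q chains C1qa, C1qb and C1qc by -0.30, -0.39 and -0.39, none of them past the threshold. For class I antigen presentation, H2-K1 was 12.71 to 14.05 on the young and 12.21 to 13.31 on the middle-aged arrays (-0.70 ± 0.27).

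**Figure D3:**
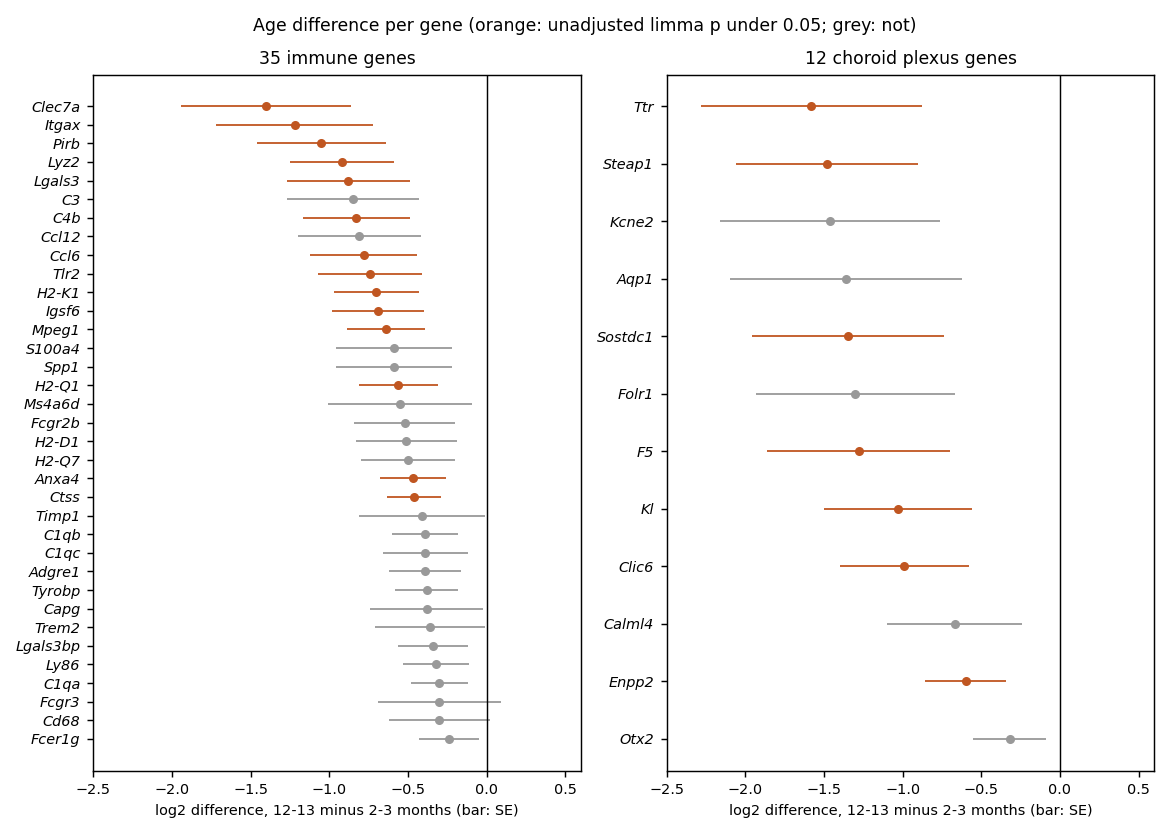
Difference between middle-aged and young arrays for each of the 35 immune and 12 choroid plexus genes, in log2, with the standard error of the limma fit as bars and genes at an unadjusted p under 0.05 in orange. All 35 and all 12 points lie below 0, and 14 and 7 of them are orange.

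General markers of microglia had a median closer to 0 than the immune list. Of the 12 genes of the microglia list, 10 had a lower mean and 1 passed the unadjusted threshold (Ptprc, CD45, -0.38 ± 0.17), with a median of -0.21. Those with the smallest differences were Csf1r, the receptor for the growth factor on which microglia depend (-0.01 ± 0.18), P2ry12 (0.02 ± 0.35), Cx3cr1 (-0.04 ± 0.24), Tmem119 (-0.05 ± 0.22) and Selplg (0.08 ± 0.17). Itgam was at -0.17 ± 0.21, Laptm5 at -0.25 ± 0.47, the lysosomal protein Cd68 at -0.30 ± 0.32 and Aif1 at -0.43 ± 0.43. Trem2, a microglial lipid receptor, was at -0.36 ± 0.35, and Trem2 and Cd68 are on both lists. Whether the 2 sets of genes differ was not tested.

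The 10 genes with the smallest p on the lower side were taken by rank, and none of them passed the adjusted threshold. Cst7 (cystatin F, an inhibitor of lysosomal cathepsins) was 4.96, 5.52, 4.79, 5.97 and 6.44 on the young and 2.95, 6.12, 2.84, 2.89, 4.35 and 3.24 on the middle-aged arrays. It was well above background on 5 of 5 young but on 2 of 6 middle-aged arrays (2 and 5), so its fitted difference of -1.81 ± 0.57 (unadjusted p = 0.00637, limma) includes 4 arrays that were not well above background. Without middle-aged 2 and 5 it was -2.65, a value in which no middle-aged array left was well above background. Il1b, the cytokine interleukin-1 beta, was 6.29 to 7.54 on the young and 5.50 to 6.73 on the middle-aged arrays (-0.90 ± 0.26). Cd84, a receptor of leukocytes, was 6.28 to 7.59 on the young, 6.80 on middle-aged 2 and 5.68 to 6.04 on the other 5 (-0.83 ± 0.26). The probe named Igh-VJ558, for the largest family of immunoglobulin heavy chain variable genes, was 9.43, 8.12, 8.42, 10.70 and 10.76 on the young and 6.49, 8.48, 5.37, 6.49, 6.57 and 8.30 on the middle-aged arrays (-2.54 ± 0.74, unadjusted p = 0.00386, limma), and cannot be assigned to 1 member of that family. Of the 8 probes of that name 7 were lower, from -2.54 to -0.02, and 1 was at 0.02. LOC674005 had the smallest p (difference -1.68 ± 0.45, unadjusted p = 0.00216, limma), with 4 of 5 young and 1 of 6 middle-aged arrays well above background, and Gm1524 had 5 of 5 and 2 of 6. For Cst7, LOC674005 and Gm1524, which met the filter mainly through the young arrays, the fitted difference rests partly on values near background. Cga, the shared subunit of pituitary glycoprotein hormones, was 5.76 to 9.58 on the young and 4.43 to 6.11 on the middle-aged arrays (-1.90 ± 0.56), while of the 9 genes tested of its list, anterior pituitary, it alone passed. AF152371, Gm1524, Bcl2a1c and Erich2 made up the 10 and differed by -1.17, -0.99, -0.68 and -1.05.

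**Figure D4:**
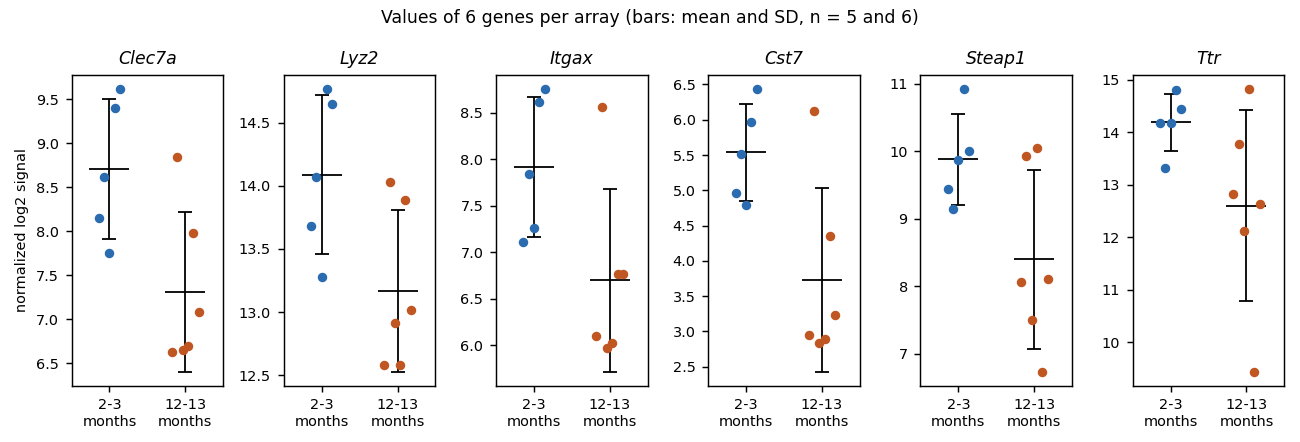
Normalized log2 signal of Clec7a, Lyz2, Itgax, Cst7, Steap1 and Ttr per array, with 1 point per array and black bars for the mean and SD of 5 young and 6 middle-aged arrays. For Clec7a, Lyz2, Itgax and Cst7 most middle-aged points lie below the young ones and the highest middle-aged point is middle-aged 2, while Ttr and Steap1 are lowest on middle-aged 5.

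Choroid plexus genes were lower on middle-aged arrays as well. All 12 on the array had a lower mean, 7 passed the unadjusted threshold (0.48% of all genes did), and the median was -1.29. Ttr, the thyroid hormone carrier transthyretin, was 14.18, 13.32, 14.18, 14.81 and 14.44 on the young and 12.82, 13.78, 12.11, 14.83, 9.44 and 12.64 on the middle-aged arrays. Steap1, a member of a metalloreductase family, was 9.45, 9.15, 9.88, 10.93 and 10 on the young and 8.07, 9.93, 7.50, 10.05, 6.74 and 8.11 on the middle-aged arrays. Both were lowest on middle-aged 5, and middle-aged 2 lay within the young range (differences -1.58 ± 0.70 for Ttr and -1.48 ± 0.58 for Steap1). Without middle-aged 2 and 5 the differences were -1.08 and -1.45. Kl (klotho), Clic6, Enpp2, Sostdc1 and F5 also passed, at -1.03, -0.99, -0.60, -1.35 and -1.28, and the potassium channel subunit Kcne2 (-1.46 ± 0.70) and the water channel Aqp1 (-1.36 ± 0.74) did not.

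The immune and the choroid plexus genes did not sort the arrays alike. Centred on the 11 arrays, the immune list was -0.10, 0.29, 0.03, 0.74 and 0.65 on the young and -0.57, 0.50, -0.50, -0.51, -0.13 and -0.41 on the middle-aged arrays. The choroid plexus list was 0.41, -0.12, 0.59, 1.47 and 0.70 on the young and -0.58, 0.46, -1.08, 1, -2.23 and -0.62 on the middle-aged arrays. Middle-aged 4 was thus low in immune genes and second of the 11 in choroid plexus genes, and middle-aged 5 was lowest in choroid plexus genes and the second of its group in immune genes. Young 4 and 5 were the 2 highest of the 11 in immune genes. The part of plexus tissue, blood cells or meninges in the immune difference was not tested. Of their lists, T cells had a median difference of -0.24 (8 genes tested), B cells -0.06 (7 genes), red blood cells -0.10 (7 genes), meninges and fibroblasts 0.03 (12 genes) and endothelial and mural cells 0.18 (10 genes). The 1 gene of these that passed was Jchain, the chain that joins secreted antibodies (-0.69 ± 0.32).

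Interferon-induced genes shared the direction, with 11 of 11 lower means, a median of -0.30 and 1 past the threshold, Bst2 (tetherin, which holds budding viruses at the cell surface), at -0.69 ± 0.30. Ifit3 was at -0.54 ± 0.28. The other lists stood close to 0 and held no gene past the threshold. Neuronal and glial medians were -0.05 for astrocytes, 0.09 for oligodendrocytes and myelin, 0.01 for Bergmann glia, 0.08 for excitatory synapses, 0.06 for developing neurons and 0.21 for immediate early genes, of which 13 of 14 had a higher mean. Regional medians were 0.14 for cerebellum, 0.21 for forebrain identity, 0.12 for hypothalamus, 0.08 for thalamus, 0.00 for hippocampus and olfactory bulb, -0.03 for cerebral cortex, -0.11 for striatum and -0.12 for midbrain and hindbrain. Oxidative phosphorylation (0.00), circadian clock (0.01), heat shock and stress (-0.09) and reference genes (-0.01) completed the lists.

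On the higher side, 7 of the 10 genes with the smallest p were dim, with 1 to 4 of the 5 young arrays well above background. Tph1, which makes serotonin outside the brain and in the pineal gland, was 5.28, 5.44, 6.09, 4.99 and 6.71 on the young and 9.32, 6.16, 7.17, 6.84, 6.24 and 6.22 on the middle-aged arrays, a difference of 1.29 ± 0.49 in which middle-aged 1 stood apart. The probe A_52_P917036, which has no gene name, was the only 1 of these 10 whose groups did not overlap, at 4.74 to 5.30 on the young and 5.50 to 6.03 on the middle-aged arrays (0.69 ± 0.21), against 14 of all genes tested (0.0622%) with every middle-aged array above every young one. The other 8 were Cuzd1, Olfr1362, Tff1, Cela3b, Vmn1r56, Olfr78, MGC118313 and Tnp1, with differences of 0.46 to 1.36. Cuzd1, Olfr1362, Cela3b and Vmn1r56 met the filter mainly through the middle-aged arrays, so their differences rest partly on values near background. Where a probe had to be well above background on all 11 arrays, 16 genes were higher and 97 lower at the unadjusted threshold, in place of 33 and 108.

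On hypothalamus arrays of the same strain, sex and ages, most of the immune genes had the opposite sign. With both sets normalized together, 32 of the 35 immune genes were lower on middle-aged than young arrays labelled cerebellum and higher on middle-aged than young hypothalamus arrays, with median differences of -0.57 and 0.26. The study chose these genes partly on arrays of this series, hypothalamus included, so neither their sign there nor the counts that follow are independent evidence. The difference between the 2 age effects had a median of -0.78 and an unadjusted limma p under 0.05 for 26 of the 35, all lower, where 3.04% of the 19175 genes tested were lower and 1.08% higher. Again 0 genes had B above 0 (0%). Without middle-aged 2 and 5, 30 of the 35 were lower at that threshold and 12 had B above 0, as did 78 of all genes. With that omission, 5 of the 35 had an adjusted limma p under 0.05. The omission was chosen after seeing the data and took out the 2 middle-aged arrays highest in immune genes. It thus lowers the difference by itself, and these counts are no support for the difference. Itgax was at -1.35 and 1.40 (difference -2.75 ± 0.59, adjusted p = 0.391, limma), Clec7a at -1.54 and 0.95 (-2.49 ± 0.64, adjusted p = 0.567, limma), Mpeg1, a pore-forming protein of macrophages, at -0.66 and 0.34 (-0.99 ± 0.26) and Ctss at -0.46 and 0.33 (-0.79 ± 0.19). With the replicate number as a block the count was 19 of 35. Of 10 choroid plexus genes tested in both, 7 passed the unadjusted threshold (median -1.46). The 2 sets lay on different slides and were read with different versions of the scanner software, so processing batch and region cannot be told apart, and each age effect is taken within its own set.

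**Figure D5:**
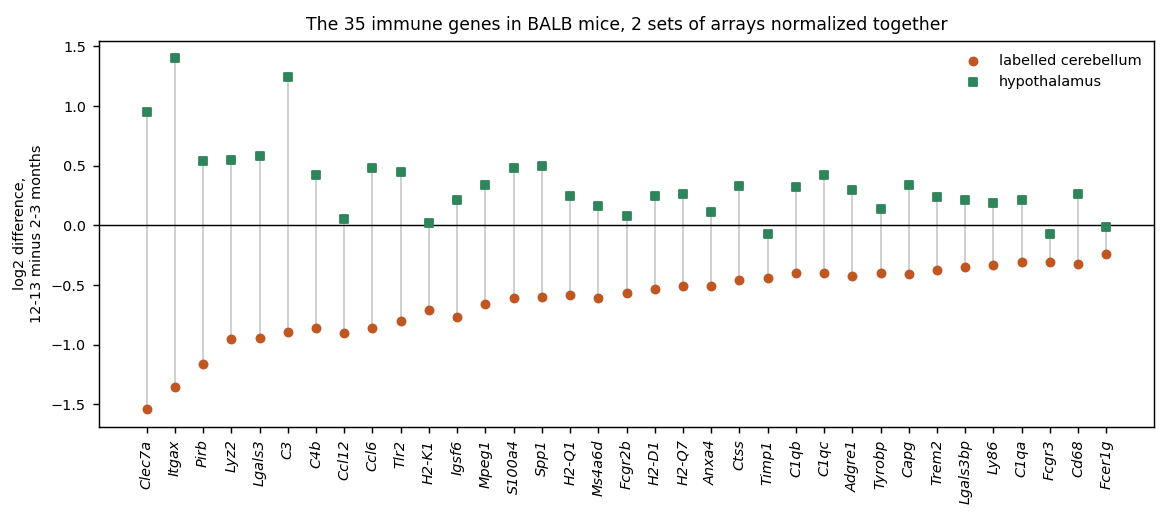
Difference between middle-aged and young arrays for each of the 35 immune genes, in log2, on arrays labelled BALB cerebellum (circles) and on BALB hypothalamus arrays (squares), with a line joining the 2 values of a gene. All 35 circles lie below 0, and for 32 genes the square lies above 0.

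The arrays labelled striatum, which lay on the same slides and mostly carried cerebellar genes, had the same sign. Their middle-aged minus young median over the 35 immune genes was -0.42, beside -0.52 on the arrays labelled cerebellum. The difference between the 2 age effects had B above 0 for 0 of 22039 genes (0%), and 0 of the 35 passed the unadjusted threshold in either direction, where 0.136% of all genes were lower. For Clec7a the values were -1.41 on both (difference -0.01 ± 0.89), and for Lyz2 -0.92 and -0.46 (-0.46 ± 0.49). Choroid plexus genes had a median of 0.00 there. The 2 sets shared slides and the labels do not say whether they came from the same mice, so the shared sign is not an independent repeat.

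None of 3 measures of array quality passed a test between the ages. The 75th percentile of intensity was 1772 ± 276 on the young (SD, n = 5) and 2263 ± 858 on the middle-aged arrays (SD, n = 6; two-sided exact permutation test over 462 splits, p = 0.268, adjusted over 3 measures 0.448). The share of probes well above background was 78.5% ± 2.99 and 80.7% ± 3.10 (exact permutation p = 0.299, adjusted 0.448), and the median correlation with the own group 0.978 ± 0.00485 and 0.977 ± 0.0255 (exact permutation p = 0.994). On the 2 slides that held both ages, the median over the 35 immune genes was -0.50 between middle-aged 3 and young 3 and -1.20 between middle-aged 1 and young 5, and over the choroid plexus genes -1.97 and -1.40. The 3 immune lists, of the study, of microglia and of interferon-induced genes, were below 0 in both pairs. So were other lists, among them T cell (-0.82 and -0.78), red blood cell (-0.44 and -0.42) and cerebral cortex (-0.84 and -0.58). Others, such as thalamus (0.40 and 0.49), were above 0 in both. Each pair sets a single array against another, so the sign is not particular to immune genes and age cannot be told from dissection.

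Of the 35 genes on the immune list, Clec7a had the largest difference and Lyz2 the smallest p, and their promoters are shown from RefSeq (GRCm38.p6, in the direction of transcription, running from upstream of the start to just past it). Capitals mark GAGGAA or its reverse complement TTCCTC, the core letters of the site of PU.1, a transcription factor of macrophages, and no other motif was searched.
Clec7a (chr6:129472730-129473029, minus strand): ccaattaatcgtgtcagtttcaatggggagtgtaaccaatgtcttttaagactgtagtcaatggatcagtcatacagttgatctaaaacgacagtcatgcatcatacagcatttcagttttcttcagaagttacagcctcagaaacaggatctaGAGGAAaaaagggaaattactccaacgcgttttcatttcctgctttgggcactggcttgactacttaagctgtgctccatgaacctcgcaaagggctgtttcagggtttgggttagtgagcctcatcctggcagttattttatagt
Lyz2 (chr10:117282223-117282522, minus strand): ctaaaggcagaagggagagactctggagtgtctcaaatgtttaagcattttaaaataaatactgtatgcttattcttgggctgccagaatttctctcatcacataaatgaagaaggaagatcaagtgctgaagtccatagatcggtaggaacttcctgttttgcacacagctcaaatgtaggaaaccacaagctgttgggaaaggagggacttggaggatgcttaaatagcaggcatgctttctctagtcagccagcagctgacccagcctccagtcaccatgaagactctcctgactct
The letters occur once in the Clec7a window and not in that of Lyz2. They occur in 13 of the 29 immune genes whose promoter was in the table (44.8%), in 3 of 7 choroid plexus genes (42.9%) and in 28.3% of all 27025 genes. A match is a match of letters, not a measured site.

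The median over the 35 genes stayed between -0.64 and -0.39 and all 35 means stayed lower when any 1 of the 11 arrays was omitted, while the number past the unadjusted threshold went from 2, without young 4 or without young 5, to 23, without middle-aged 2. It was 15 without young 1, 14 without young 3, 13 without middle-aged 5, 10 without young 2, 7 without middle-aged 6, 6 without middle-aged 1 or 4 and 5 without middle-aged 3. Without middle-aged 2 and 5, the arrays with the most cerebellar RNA, 23 passed and the median was -0.73. These were also the middle-aged arrays highest in immune genes, and this omission was chosen after seeing the data. For choroid plexus genes the median ran from -1.61 to -0.86 and the count from 0, without young 4 or without middle-aged 5, to 11, without middle-aged 4. It was 3 without young 1, 2 without young 3, young 5, middle-aged 1 or middle-aged 6, and 1 without middle-aged 3, and 4 (median -1.07) without middle-aged 2 and 5 together.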

How the data were processed

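The authors purified total RNA (RNAqueous), amplified it and hybridized it in 1 colour. They deposited Agilent Feature Extraction output (version 9.1 in the submitters' processing notes, a later one in the headers of these arrays) in which spot intensity is linear and background-corrected, and a matrix of log2 values, quantile normalized per cohort. The 15 matrix columns each matched the scanner file of the same array best (lowest rank correlation 0.9903). Column medians were 8.10 to 8.14.

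From the scanner files, control spots and outlier spots were left out, log2 was taken, spots of a probe were averaged, and the 15 arrays labelled BALB cerebellum were quantile normalized. Of 41174 probes, 22951 were named through a RefSeq accession. A probe was tested when well above background on at least 5 of the 11 arrays, and limma's lmFit and eBayes (prior proportion 0.01) were fitted over the 3 ages. A gene was called at B above 0 and is given by its brightest probe. Of 29 genes of the text with over 1 tested probe, 27 had all probes on the same side. No probe was saturated. Age effects were compared between regions by a limma interaction after joint normalization. Software was limma 3.58.1 in R 4.3.3, with version 1.17.8 of data.table, and statmod 1.5.0 for array weights and random blocks, and matplotlib 3.10.9 for plots. On simulated data for this comparison (32836 probes, 200 changed), 45% of changes of 1 and 81% of changes of 2 on the log2 scale were recovered, with 11 false calls. The simulated noise was normal and independent between probes, without deviations shared by the genes of an array. These rates therefore need not hold for the real arrays, where the highest B was -4.

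Replicates are separate samples by the labels and are counted as mice in the methods, and p-values measure the spread between them. For the limma p-values that spread includes that of the aged arrays, whose tissue content differed. Members, lists and tests were chosen with earlier results of these data known. The naming rule takes the 4 genes of largest spread in each list and every cerebellar gene. It adds the 10 smallest p in each direction, the 15 genes of largest spread, and H2-Ea, Xist and Y-linked genes, and of these the text gives the ones its results turn on. Other list genes named, such as Lyz2, Ctss, C4b, Csf1r and Ms4a6d, were chosen after their values were seen. Alternatives were 75th percentile scaling, normexp background correction (offset 50), other filters, outlier spots kept, slide and replicate number as blocks, array weights, the series table, only the 11 arrays and each array left out. Normexp used the spot median, since these files hold no mean signal column. Omissions of 2 or 4 arrays, and the extra settings for the lists and the hypothalamus comparison, were chosen after seeing the data. Some genes that the rule names are not reported here.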

Additional observations from a re-analysis of the deposited data

Results flagged for a closer look

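Of 252 sets of values examined, each the 5 young or the 6 middle-aged arrays for a gene, list or quality measure of the report, 19 had 1 array apart from the others by Dixon's criterion, where chance gives about 1 in 20. Middle-aged 2 accounted for 10. It had 86.9% of probes well above background, its median correlation within the group was 0.9254, and it was the highest middle-aged array for Itgax (8.56), C1qa (12.96), C1qb (11.85), Cd84 (6.80), Mpeg1 (12.91), Igsf6 (8.12), the microglia list (0.34, centred on the 11 arrays) and the T cell list (0.77). Young 3 was lowest of its group for Pmch (11.90) and highest for Nrgn, a forebrain synaptic gene (17.36), and for the cerebral cortex list (0.96). Young 2 was lowest for the Bergmann glia list (-0.31) and highest for the heat shock and stress list (0.55), young 4 lowest for Prkcd, a thalamus gene (13.56), and young 5 highest for 1110002N22Rik (18.57). Middle-aged 1 stood apart for Tph1 (9.32) and middle-aged 6 for Npas4 (9.52). With all arrays kept, no gene of the report had an adjusted p under 0.05 for the difference between the age effects of 2 regions. Without middle-aged 2 and 5, an omission chosen after seeing the data, 5 of the 35 immune genes did against hypothalamus. Those were the middle-aged arrays highest in immune genes, so leaving them out lowers that difference by itself.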

How the results depend on the processing

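The number of genes with B above 0 was 0 in every alternative except array weights (133, of which 2 passed an adjusted p of 0.05, Cst7 and LOC674005) and the omission of young 3, young 4, middle-aged 2, middle-aged 5 and the aged arrays (38). The weights gave middle-aged 2 a weight of 0.16, middle-aged 5 one of 0.53 and young 1 one of 5.29. Middle-aged 2 and 5 were the only middle-aged arrays with Cst7 well above background. Cst7 and LOC674005 met the filter mainly through the young arrays, so both calls rest partly on values near background. The count at an unadjusted p under 0.05, 141 in the report, was 221 with no filter, 284 with slide as a fixed block, 366 with only the 11 arrays, 3696 with array weights, 724 without middle-aged 2 and 5, 243 without young 3 and 4 and middle-aged 2 and 5, 2525 when the aged arrays were omitted too, and 76 (without middle-aged 3) to 444 (without middle-aged 2) when 1 array was left out. Of these genes 25 were on the lists, against 76 with array weights, 43 without middle-aged 2 and 5, 65 without the 4 arrays and the aged, and 4 (without young 4) to 42 (without middle-aged 2) with 1 array left out. For the difference between regions, slide as a fixed block gave 49 genes in place of 94 against the arrays labelled striatum, and leaving out middle-aged 2 and 5 gave 1653 in place of 789 against hypothalamus, with 78 at B above 0. The cause of these shifts was not tested. Omissions of more than 1 array were chosen after seeing the data.

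The replicate numbers did not pair the arrays: deviations of same-numbered young and middle-aged arrays correlated at 0.44, -0.42, -0.37, -0.34 and -0.36. With the replicate block 85 genes passed the unadjusted threshold, 14 of them on the lists, and the immune count was 6 of 35. The block within region gave 52 genes against the arrays labelled striatum and 422 against hypothalamus.

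All 35 immune means stayed lower in every alternative except slide as a fixed block (33 of 35), with medians from -0.74 to -0.39. Their count past the unadjusted threshold went from 2 to 31. For choroid plexus genes the median went from -1.61 to -0.67 and the count from 0 to 11, with 0 under array weights. Over the named genes, 410 of 3963 recomputed differences had the other sign, and of 750 list medians 54 did. Probes near background carry the least precise values, and 11 arrays limit the precision of all of them.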
